A study of Mus musculus with 13 samples.

Results

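The comparison described here is that of the lower incisors of VDRgem mice with those of VDR-null mice, across all genes of the deposited count table. Its 8 libraries, 3 of VDRgem and 5 of VDR-null, were taken by their labelled genotype from the 13 of the series. The other 5 libraries are controls, called wild type in the series' design text, and serve as the background here. All are male incisors of postnatal day 5, and nothing in the labels names a treatment, diet, strain or litter. The 2 mutant genotypes concern the gene of the vitamin D receptor, and the labels give no further detail of either allele. The incisors were described as independent samples, and p-values rest on the spread among these 3 and 5 and the 5 controls.

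As background, the vitamin D receptor is a nuclear receptor that binds the active hormone calcitriol, pairs with a retinoid X receptor and acts on genes such as the one for the hormone's degrading enzyme, Cyp24a1. Without a receptor the hormone has no nuclear response, and some actions of the receptor, in hair follicle keratinocytes for example, are known not to need the hormone. The VDRgem receptor is known from other work as a version changed in its ligand pocket so that it responds to synthetic gemini analogs rather than to calcitriol. By that background, a comparison of VDRgem with VDR-null would set a receptor protein with an altered pocket against the loss of the receptor. The receptor protein was not measured in these samples. The mouse incisor grows throughout life, from an epithelial and mesenchymal stem cell niche at its base, through enamel-forming ameloblasts and dentin-forming odontoblasts, and is held by a ligament to its bony socket.

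The libraries of this comparison held 26145535 to 87783466 reads assigned to genes, and 17837 genes passed the filter on low counts. Enamel and dentin genes marked the tissue in every library: Amelx, the main enamel matrix protein, lay between 5525 and 39380 CPM (read counts scaled to library size), and Dspp, the main dentin phosphoprotein, between 14520 and 32280 CPM. Neither was called between the mutants (adjusted p = 0.854 and 0.904). No pair of these 8 libraries agreed within sampling noise by a chi-square per degree of freedom. The lowest value, 55.81, was between VDRgem 3 and VDR-null 3, while VDRgem 3 stood at 117.6 from VDRgem 2 and 310.1 from VDRgem 1. Such values also grow with library size, and VDR-null 3 was the smallest library. The skeletal muscle list spread from a summed 11 CPM in VDR-null 1 to 861 CPM in VDR-null 3, and keratinocyte genes stood apart in VDRgem 1 and 2, as given with their values below.

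Vdr itself (ENSMUSG00000022479, chromosome 15, 97854425 to 97910630 on the mm10 build) was read first. Its level was 107, 205 and 179 CPM in VDRgem 1, 2 and 3 and 213, 253, 259.9, 204 and 281 CPM in VDR-null 1 to 5, with controls from 142 to 180.3 CPM. VDRgem 1 was lowest of all, VDRgem 3 lay in the range of the controls, and VDRgem 2 reached just above the lowest VDR-null library, so the groups overlapped by a narrow margin. Every VDR-null library lay above every control. The means were 163.6 CPM in VDRgem, 163.8 CPM in controls and 242 CPM in VDR-null. The exact two-sided permutation test of log2 CPM gave p = 0.0714 over 56 arrangements, the smallest possible being 0.0357, and in the fit across all genes the log2 fold change of VDRgem over VDR-null was -0.56, SE 0.18, adjusted p = 0.0397. That call was lost without control 1 (0.0504), control 2 (0.0533), control 3 (0.0599), control 4 (0.0503), VDRgem 1 (0.166), VDR-null 1 (0.0501), VDR-null 2 (0.0702), VDR-null 3 (0.0522) or VDR-null 5 (0.0759), the adjusted p standing in parentheses. The fit of the 8 mutant libraries alone did not call Vdr lower either. Since the labels do not say which part of the gene is altered in either mutant, counts over the whole gene do not check the alleles.

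Between the mutants 1887 genes were higher in VDRgem and 1459 lower, which is 10.6% and 8.18% of the genes tested, 18.8% in all (edgeR quasi-likelihood test, Benjamini-Hochberg adjusted p under 0.05). The median log2 fold change was 0.78 among the higher genes and -0.48 among the lower ones, against -0.02 over all genes tested. The 3 VDRgem and 5 VDR-null libraries did not overlap for 1277 of the higher genes and 1031 of the lower genes, and over all genes tested 18% were without overlap, 9.17% with VDRgem above and 8.84% with VDRgem below. With library totals as the only scaling, in place of TMM, 1310 genes (7.34%) were higher and 3616 (20.3%) lower, and the median over all genes moved from -0.02 to -0.19. The mean of the controls lay between those of the mutants for 1551 of the 1887 higher genes and 1138 of the 1459 lower genes. These genes were picked for mutant means far apart, which by itself favours a control mean between them. The share over all genes tested was not computed, so nothing is drawn from these counts about either mutant's direction from the controls.

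These counts rested strongly on VDRgem 1. It was the highest of the 3 VDRgem libraries for 1608 of the 1887 higher genes and the lowest for 1002 of the 1459 lower genes, while VDR-null 1 was the lowest VDR-null library for 960 of the higher genes and the highest for 692 of the lower genes. Without VDRgem 1 the counts fell to 321 higher (1.77%) and 113 lower (0.623%), without VDRgem 2 they were 1243 (6.67%) and 469 (2.52%), and without VDRgem 3 they were 2640 (14.5%) and 1970 (10.8%). Without VDR-null 1 there were 1288 higher and 757 lower genes. A fit of the 8 mutant libraries alone called 584 (3.33%) and 169 (0.964%). Without VDRgem 1 and 2 together 3 genes (0.0157%) were called higher and 29 (0.152%) lower, with VDRgem 3 as the lone sample of its group assumed to vary like the others. Among the genes without overlap and with at least 1 CPM on average, 274 higher and 87 lower genes were called in each of the 3 fits that left out 1 VDRgem library, and the text gives most room to those.

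**Figure D1:**
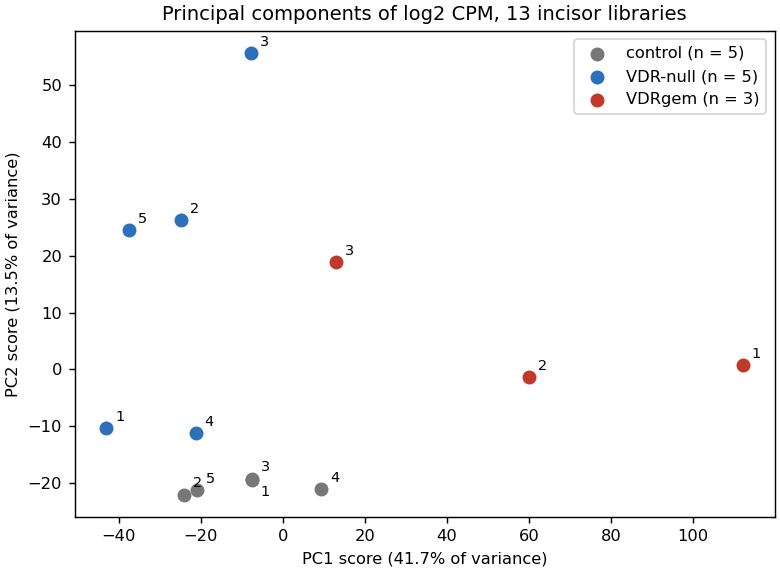
The 13 libraries on the first 2 principal components of log2 CPM, which hold 41.7% and 13.5% of the variance (axes in component scores, digits are replicate numbers). VDRgem 1, 2 and 3 lie at 112, 60.0 and 12.9 on the first component, in that order away from the controls and the VDR-null libraries, and VDR-null 2, 3 and 5 lie apart from VDR-null 1 and 4 on the second.

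**Figure D2:**
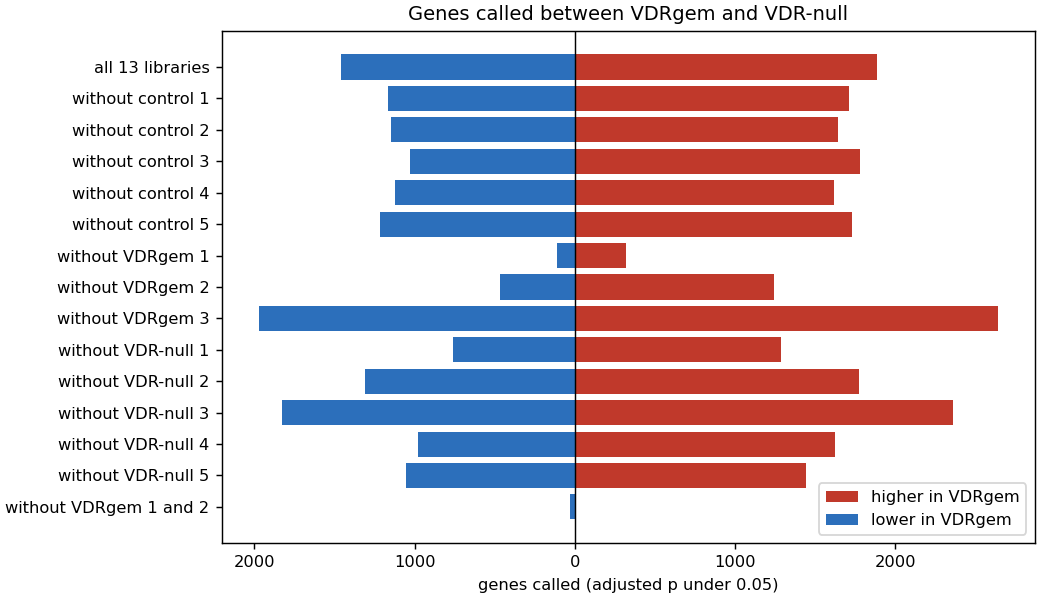
Genes called higher (right) and lower (left) in VDRgem than in VDR-null, in counts of genes, with all 13 libraries and with each library left out. The bars shrink to 321 and 113 without VDRgem 1 and to 3 and 29 without VDRgem 1 and 2.

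Of 19 tested genes of the circadian clock 11 were higher in VDRgem (57.9% called, against 18.8% of all genes). In most cells CLOCK and BMAL1 proteins drive a daily cycle by binding the DNA letters CACGTG, an E-box, near genes such as Per1 and Ciart, whose products hold the drivers back. The 250 bases before the start of 2 of the genes that rose are shown because they carry that motif, in capitals, as read from RefSeq promoters on GRCm38.p6. The Per1 stretch is chr11:69098699-69098948, plus strand, with the motif starting 166 bases before the start, and the Ciart stretch is chr3:95882229-95882478, minus strand, with motifs starting 116, 58 and 44 bases before it.
Per1: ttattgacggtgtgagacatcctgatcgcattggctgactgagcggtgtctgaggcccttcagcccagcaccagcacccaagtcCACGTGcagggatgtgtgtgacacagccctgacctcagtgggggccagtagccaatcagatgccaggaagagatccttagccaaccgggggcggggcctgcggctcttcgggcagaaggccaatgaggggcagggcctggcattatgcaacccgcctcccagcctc
Ciart: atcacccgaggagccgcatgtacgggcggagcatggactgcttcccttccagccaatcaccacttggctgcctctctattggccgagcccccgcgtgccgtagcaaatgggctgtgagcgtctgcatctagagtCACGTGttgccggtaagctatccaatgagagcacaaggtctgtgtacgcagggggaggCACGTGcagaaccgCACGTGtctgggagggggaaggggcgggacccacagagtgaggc

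Per1 also has a second listed start without the motif. The clock genes tested had 21 listed promoters, from 16 of the 19 genes. CACGTG, which reads the same on both strands, was found in 6 of them (28.6%). It was found in 6.02% of all 32851 promoters of the same length and in 7.66% of those of tested genes. Besides Per1 and Ciart it stood before Tef, which rose, and before Cry1 and Bhlhe41, which were not called. A match describes the letters and is not evidence of binding.

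Per1 measured 76.6, 62.7 and 56.3 CPM in VDRgem 1 to 3 and 22.6, 33.2, 34.4, 31.8 and 32.6 CPM in VDR-null 1 to 5, with controls from 38.8 to 53.7 CPM. All VDRgem libraries lay above all controls, and all controls above all VDR-null libraries (log2 fold change 1.08, SE 0.14, adjusted p = 0.00125). Ciart, named here after its value was seen, measured 1.8, 1.76 and 1.38 CPM in VDRgem and 0.902, 0.609, 1.05, 0.718 and 0.891 CPM in VDR-null (0.99, SE 0.21, adjusted p = 0.00796). Its VDRgem libraries were all above its VDR-null libraries, and the call was lost without VDRgem 1 (0.0574). Nr1d1, also named after its value was seen, encodes the repressor REV-ERB alpha and measured 59.4, 42.2 and 35.8 CPM against 12.8, 26.3, 10.9, 14.9 and 20.8 CPM (1.41, SE 0.26, adjusted p = 0.00515).

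Bhlhe40 encodes another repressor of the clock, and its level was 149.96, 73.9 and 66.2 CPM in VDRgem and 37.3, 46.1, 35.8, 35.5 and 28.4 CPM in VDR-null (1.40, SE 0.21, adjusted p = 0.00253). Dbp, a transcription factor gene that the clock drives, measured 22.3, 16.3 and 15.3 CPM against 9.98, 11.9, 7.15, 6.95 and 8.58 CPM (1.01, SE 0.18, adjusted p = 0.00467). Neither gene's groups overlapped. None of the 19 clock genes fell. Nfil3, Npas2, Per3, Tef and Per2 were among the other higher ones, and the list median was 0.48 against -0.02 over all genes. Arntl and Clock, which encode the drivers, had log2 fold changes of 0.29 and -0.14 and were not called. Without VDRgem 1, 4 of the 19 rose, and the list median was 0.38. Averaged over the list, log2 CPM came to 4.89, 4.52 and 4.58 in VDRgem, to between 3.89 and 4.36 in VDR-null and to between 4.15 and 4.44 in controls. The labels give no hour of collection, and the part of such an hour was not tested.

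Of 20 immediate early and heat shock genes, which are switched on within minutes by handling, growth signals or stress, 14 rose (70% called, against 18.8% of all genes). Junb, a component of the AP-1 transcription factor, measured 53.7, 31.6 and 14.7 CPM in VDRgem and 3.09, 4.26, 9.86, 7.03 and 4.05 CPM in VDR-null (2.58, SE 0.42, adjusted p = 0.00305). Ier3, an early survival gene, measured 32, 37.3 and 20.9 CPM against 10.9, 16, 15.3, 10.3 and 11.1 CPM (1.24, SE 0.20, adjusted p = 0.00305). The heat shock gene Hspa1b, a near-identical neighbour of Hspa1a whose reads can be hard to divide between them, measured 25.8, 8.5 and 3.63 CPM against 1.98, 2.44, 2.3, 2.04 and 1.37 CPM (2.64, SE 0.43, adjusted p = 0.00325). In each of the 3 genes every VDRgem library exceeded every VDR-null library, VDRgem 3 by the least.

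No gene of that list fell, and its median was 0.76. Without VDRgem 1, 5 rose, with a median of 0.48, and the number was 9 without VDR-null 1. Averaged over the list, log2 CPM came to 4.73, 4.13 and 3.54 in VDRgem 1, 2 and 3, above a VDR-null range of 2.88 to 3.49. The order of the VDRgem libraries is that of their keratinocyte genes, and its part in the result was not tested.

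**Figure D3:**
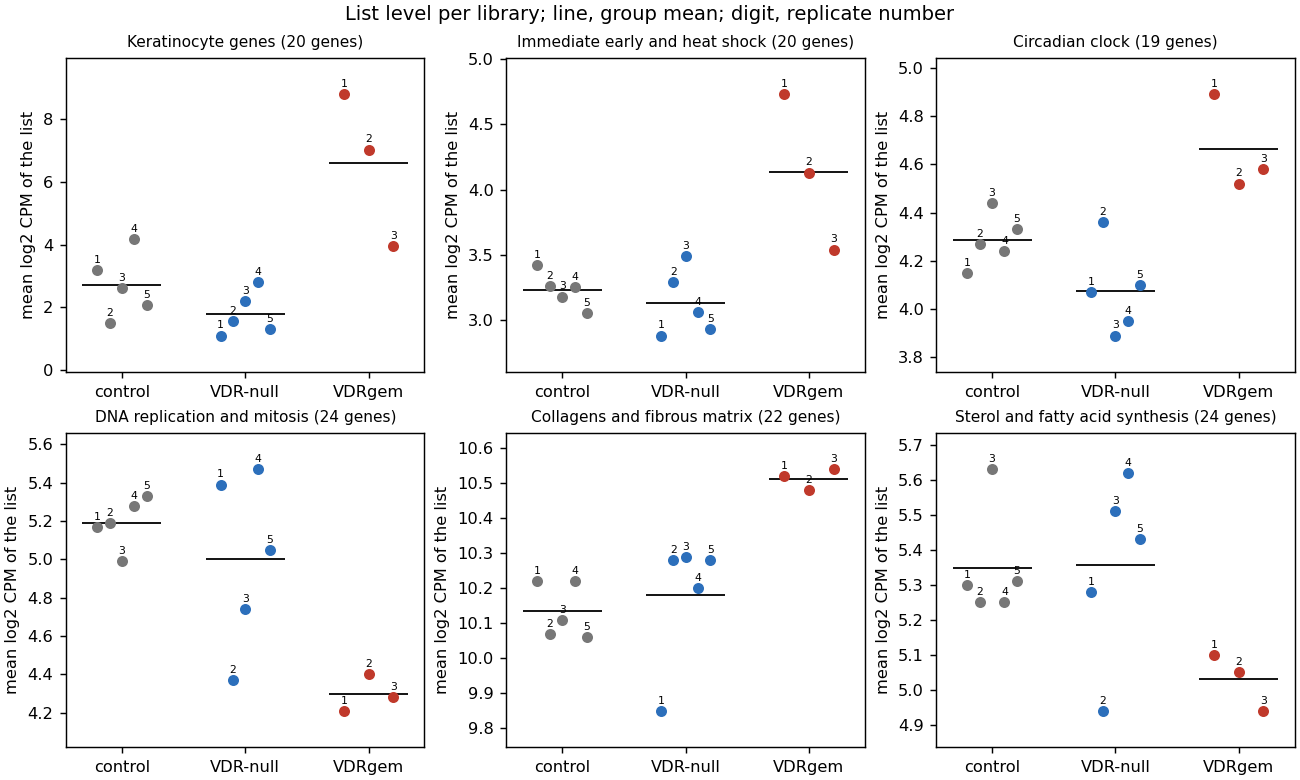
Mean log2 CPM of the members of 6 gene lists in each library, by genotype, with the group mean as a line and the replicate number beside each point. VDRgem 1, 2 and 3 lie at 8.78, 7.02 and 3.94 for keratinocyte genes, while for collagens and fibrous matrix they lie together, between 10.48 and 10.54, above all VDR-null libraries.

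Several genes of tendon, ligament and fibrous matrix were higher in VDRgem. Scx encodes scleraxis, the transcription factor of tendon and ligament cells. It measured 4.97, 3.52 and 2.48 CPM in VDRgem and 0.831, 0.753, 0.606, 0.835 and 0.483 CPM in VDR-null, with controls from 0.997 to 1.62 CPM. The 3 ranges did not touch, and the log2 fold change was 2.36, SE 0.25, adjusted p = 2.02e-04. Scx was 1 of the 3 higher genes called with VDRgem 3 alone, where its adjusted p was 0.0466. The follicle and periodontal list held 5 higher and no lower genes among 16 tested (3 and 2 with library totals as the only scaling), with a median of 0.19. The others were Pth1r, Aspn, Tnmd and Nt5e. For this list the share called was 31.2%, against 18.8% of all genes.

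Pth1r, the receptor of parathyroid hormone and its related peptide that takes part in tooth eruption, measured 115, 109 and 99.6 CPM in VDRgem and 43.8, 67.1, 68.6, 64.9 and 62.4 CPM in VDR-null (0.81, SE 0.14, adjusted p = 0.00421). Aspn, encoding the small proteoglycan asporin of the periodontal ligament, measured 159, 102 and 133 CPM against 40.9, 91.5, 13.7, 59.6 and 30.2 CPM (1.47, SE 0.40, adjusted p = 0.0237). Neither gene's groups overlapped. VDR-null 3 was the lowest library for Aspn, and its call was lost without VDRgem 1 (0.112), VDR-null 1 (0.0547) or VDR-null 5 (0.0506). Without VDRgem 1, 2 genes of the list were called, all higher, and the number was 2 without VDR-null 5 and 3 without VDR-null 1.

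Col16a1, a minor fibril-associated collagen that is not on the lists, had 1900.3, 1574 and 1669.7 CPM in VDRgem and 439, 940.5, 565, 654 and 632 CPM in VDR-null (1.41, SE 0.19, adjusted p = 0.00139). Loxl1, an enzyme that crosslinks elastin and collagen, had 124, 83.8 and 74.5 CPM against 30.7, 48.7, 41.3, 43.9 and 39.1 CPM (1.21, SE 0.16, adjusted p = 0.0014). Col5a1, a chain of the collagen that sets fibril width, had 2846, 2416 and 2477 CPM against 938, 1574, 1520.1, 1528 and 1414 CPM (0.89, SE 0.15, adjusted p = 0.00338). In each case the lowest VDRgem library was above the highest VDR-null library, and above the highest control. Col3a1, a fibril collagen of soft tissue, showed the same separation, with 22444, 17143 and 20167 CPM against 9172, 15432, 9379, 10624 and 9523 CPM (0.88, SE 0.17, adjusted p = 0.00643).

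Of 22 collagen and fibrous matrix genes 7 rose and none fell (31.8% called, against 18.8% of all genes), with a median of 0.30. Besides Loxl1, Col5a1 and Col3a1 these were Eln, Col6a1, Col6a2 and Col1a2. Without VDRgem 1, 3 rose with the same median of 0.30, and with VDRgem 3 alone the median was 0.37 with none called. Averaged over the list, log2 CPM came to 10.52, 10.48 and 10.54 in VDRgem, above a VDR-null range of 9.85 to 10.29 in which VDR-null 1 was the lowest. Col1a1, the chief collagen of dentin and bone, was not called (0.68, SE 0.27, adjusted p = 0.093).

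Genes of matrix turnover followed. Htra1, a secreted serine protease, had 347, 260.5 and 277 CPM in VDRgem and 146, 223, 148, 138 and 135 CPM in VDR-null, with no overlap and VDR-null 2 nearest to VDRgem (0.90, SE 0.15, adjusted p = 0.00344). Adamts2, which trims procollagen, had 468, 411 and 466 against 266, 387, 345, 306 and 325 CPM (0.46, SE 0.11, adjusted p = 0.0125), and Mmp23 had 130.1, 109 and 123 against 60.9, 104, 90.4, 72.8 and 68 CPM (0.61, SE 0.14, adjusted p = 0.0135). These ranges did not overlap either, but without VDRgem 1 the calls of Adamts2 and Mmp23 were lost (adjusted p = 0.077 to 0.0831). In all 7 of 16 protease and inhibitor genes rose, Mmp2, Mmp14, Mmp9 and Mmp11 among them, and Adamts5 fell, with a median of 0.34. Thus 50% of the list was called, against 18.8% of all genes. Without VDRgem 1, only Htra1 of the named 3 was called, and 1 gene of the list rose. Called members numbered 4 without VDR-null 5 and 5 without VDRgem 2 or VDR-null 4.

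**Figure D4:**
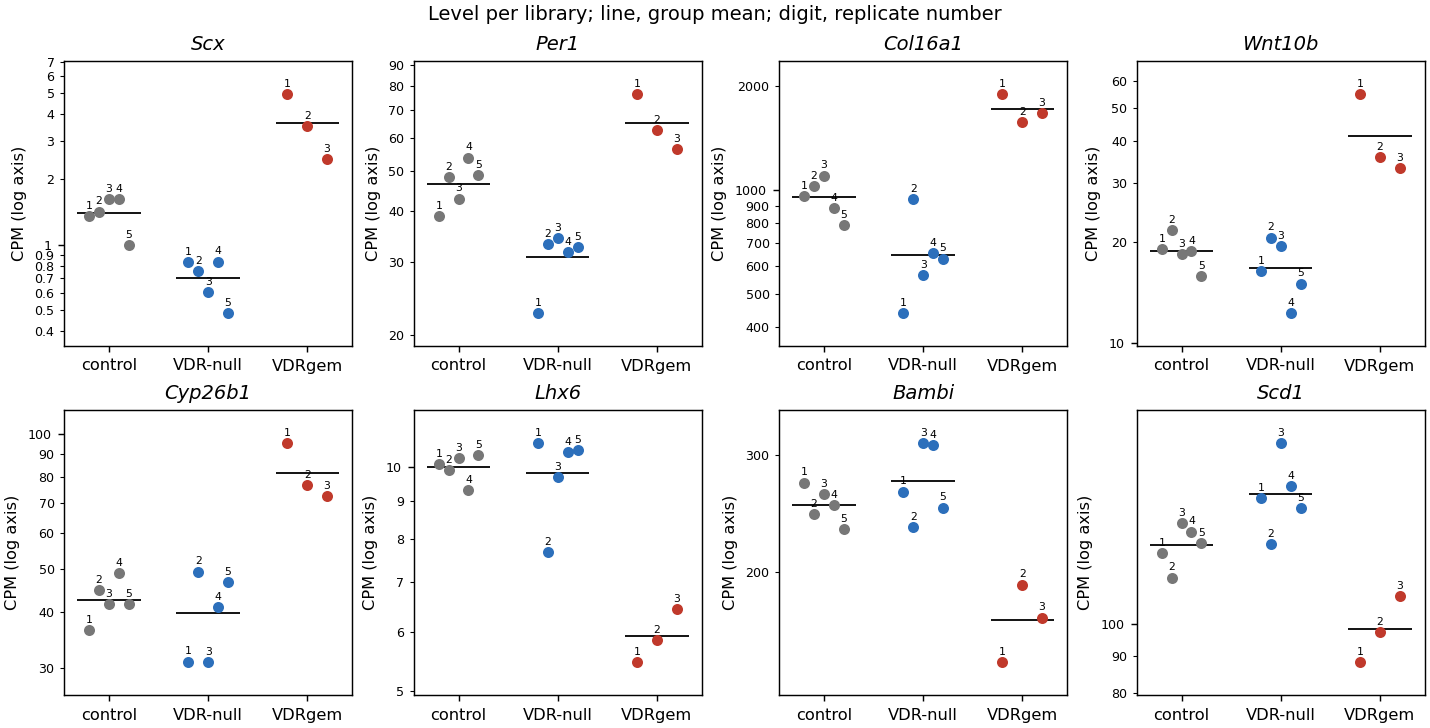
CPM per library on log axes for 8 genes by genotype, with the group mean as a line and the replicate number beside each point. Scx, Per1, Col16a1, Wnt10b and Cyp26b1 were higher and Lhx6, Bambi and Scd1 lower in every VDRgem library than in every VDR-null library.

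Of 20 genes of maturation-stage ameloblasts, the enamel cells that harden the matrix, 7 rose (35% called, against 18.8% of all genes). Slc24a4, a calcium exchanger that moves calcium into hardening enamel, had 139, 100.3 and 109 CPM in VDRgem and 75.2, 55.2, 73.6, 37.8 and 57.7 CPM in VDR-null (0.95, SE 0.18, adjusted p = 0.00559). Slc4a2, an anion exchanger for pH control, had 212, 165 and 154 against 100.1, 122, 137, 145 and 105 CPM (0.54, SE 0.13, adjusted p = 0.0165). Amtn, the maturation-stage surface protein amelotin, had 1667, 1161 and 1255 against 905, 888, 1097, 656 and 603 CPM (0.71, SE 0.18, adjusted p = 0.0172). None of the 3 overlapped between the groups, and without VDRgem 1 Slc24a4 was still called while Slc4a2 and Amtn were not (adjusted p = 0.114 to 0.121). Odam, Slc26a1, Car6 and Gm17660 also rose, making 7 of 20 with none lower and a median of 0.45, and 1 of 20 without VDRgem 1, with a median of 0.34. The number was 3 without VDR-null 5 and 4 without VDR-null 4.

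Secretory-stage ameloblast genes were mixed, with 1 of 19 higher, 3 lower (21.1% called, against 18.8% of all genes) and a median of 0.07. Fam83h, which organises keratins in ameloblasts and other epithelia, had 86.5, 33 and 13.7 CPM in VDRgem and 11.7, 11.4, 14.2, 14.7 and 10.0 CPM in VDR-null (1.84, SE 0.38, adjusted p = 0.00781). Its 3 VDRgem values lie in the order of their keratinocyte genes, VDRgem 3 within the VDR-null range. Msx2, a transcription factor of ameloblasts and other tooth cells, fell, with 136, 179 and 162 against 209, 195, 252, 222 and 224 CPM and no overlap (-0.47, SE 0.11, adjusted p = 0.0126). Both calls were lost without VDRgem 1 (adjusted p = 0.0694 to 0.0831), and none of the list was called there. The number called was 2 without VDR-null 1.

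Of 23 odontoblast and dentin genes 4 rose and 1 fell (3 and 3 with library totals as the only scaling), with a median of 0.07. The share called, 21.7%, was near the 18.8% of all genes. Spp1, the bone and dentin phosphoprotein osteopontin, had 557, 384 and 365 CPM against 126, 201, 262, 150.3 and 186 CPM (1.24, SE 0.31, adjusted p = 0.017), without overlap. Lef1, a transcription factor of Wnt signalling in early tooth cells, had 11.9, 12.2 and 17.8 against 23.7, 17.9, 20.4, 28.1 and 19.8 CPM (-0.65, SE 0.17, adjusted p = 0.0183), and its ranges were adjoining. Mepe, a phosphoprotein of the same family as osteopontin, was low throughout, at 7.46, 0.77 and 1.4 against 0.0573, 0.484, 1.13, 0.175 and 0.458 CPM, with overlap (2.92, SE 0.94, adjusted p = 0.0441). Spp1 was lost without VDRgem 1 (adjusted p = 0.106), and Lef1 without VDRgem 1 (0.104) or VDRgem 2 (0.0847). For Mepe the call was lost without control 1 (0.0527), control 4 (0.0566), control 5 (0.0545), VDRgem 1 (0.399), VDR-null 1 (0.0892), VDR-null 2 (0.0682), VDR-null 4 (0.0862) or VDR-null 5 (0.0756), and no member of the list was called without VDRgem 1. Called members numbered 2 without control 1, control 4, control 5, VDR-null 1, VDR-null 4 or VDR-null 5 and 3 without control 2, control 3, VDRgem 2 or VDR-null 2.

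Dental papilla genes, of the mesenchyme that yields odontoblasts and pulp, had a list median of -0.21, and 3 of 20 rose while 4 fell (1 and 6 with library totals as the only scaling). Of the list 35% was called, against 18.8% of all genes. Lhx6, a homeobox gene of jaw and tooth mesenchyme, had 5.47, 5.85 and 6.45 CPM in VDRgem and 10.8, 7.69, 9.69, 10.5 and 10.5 CPM in VDR-null (-0.73, SE 0.12, adjusted p = 0.00335). Its VDRgem libraries lay below all VDR-null and all control libraries. Fgf3, a growth factor that papilla cells send to the epithelial niche, had 0.192, 0.462 and 0.403 against 4.03, 0.573, 2.14, 2.8 and 1.32 CPM (-2.62, SE 0.53, adjusted p = 0.00735), again with no overlap. Fgf10, with the same kind of role, had 1.61, 1.47 and 0.806 against 7.46, 1.06, 2.99, 6.15 and 4.22 CPM, and VDR-null 2 lay within the VDRgem range (-1.77, SE 0.47, adjusted p = 0.022). Prrx2, a homeobox gene of mesenchyme, rose, with 49.8, 53.3 and 55.3 against 29.8, 38.1, 38.4, 43.7 and 44.6 CPM (0.44, SE 0.11, adjusted p = 0.0192).

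In that list Lhx6 alone was still called without VDRgem 1. There the adjusted p of Fgf3 was 0.0533. The call of Fgf10 was lost without VDRgem 1 (0.0753), VDRgem 2 (0.0597) or VDRgem 3 (0.0568), and that of Prrx2 without VDRgem 1 (0.0689) or VDRgem 2 (0.0568) and with library totals as the only scaling (adjusted p = 0.0829). The number of members called was 3 without VDRgem 2 and 4 without VDR-null 1 or VDR-null 5. In whole incisors fewer cells of a type and less RNA per cell cannot be told apart, here or for any list.

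Genes of DNA replication and mitosis were lower in VDRgem, 19 of 24 with none higher (79.2% called, against 18.8% of all genes). All 24 had negative log2 fold changes with a median of -0.80. Aurka, a kinase of the mitotic spindle, had 7.17, 7.86 and 6.71 CPM in VDRgem and 19.2, 7.72, 14, 21.5 and 15.2 CPM in VDR-null, with VDR-null 2 among the VDRgem values (-1.10, SE 0.24, adjusted p = 0.0103). Bub1, a kinase of the spindle checkpoint, had 4.99, 7.29 and 7.31 against 21.1, 7.56, 10.3, 17.8 and 17.3 CPM, with VDR-null 2 just above VDRgem (-1.18, SE 0.28, adjusted p = 0.0134). Ccne2, a cyclin of entry into DNA synthesis, had 3.51, 4.12 and 5.9 against 9.78, 8.06, 6.71, 12.5 and 8.8 CPM, without overlap (-1.02, SE 0.20, adjusted p = 0.00683).

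Averaged over the 24 genes, log2 CPM came to 4.21, 4.4 and 4.28 in VDRgem 1, 2 and 3, against 5.39, 4.37, 4.74, 5.47 and 5.05 in VDR-null 1 to 5 and 4.99 to 5.33 in controls. VDR-null 2 lay within the VDRgem range and VDR-null 3 between it and the rest. Without VDRgem 1 none was called though the median was -0.78, and there Aurka, Bub1 and Ccne2 had adjusted p = 0.0519 to 0.0869. Of the 24, the number called was 8 without VDRgem 2, 10 without VDRgem 3 or VDR-null 1 and 12 without VDR-null 4.

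Many promoters of cycling genes carry CCAAT boxes, the letters that the factor NF-Y is known to bind. The 250 bases before the starts of Aurka (chr2:172370571-172370820, minus strand) and Bub1 (chr2:127831860-127832109, minus strand) are printed from RefSeq, GRCm38.p6, because these genes fell with the list and each holds a pair of such boxes. Capitals mark CCAAT or, for a box on the other strand, ATTGG.
Aurka: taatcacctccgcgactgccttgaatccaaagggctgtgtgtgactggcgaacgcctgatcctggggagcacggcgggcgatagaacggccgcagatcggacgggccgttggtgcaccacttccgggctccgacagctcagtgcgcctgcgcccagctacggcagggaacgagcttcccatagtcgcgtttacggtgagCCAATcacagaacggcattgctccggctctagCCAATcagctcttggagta
Bub1: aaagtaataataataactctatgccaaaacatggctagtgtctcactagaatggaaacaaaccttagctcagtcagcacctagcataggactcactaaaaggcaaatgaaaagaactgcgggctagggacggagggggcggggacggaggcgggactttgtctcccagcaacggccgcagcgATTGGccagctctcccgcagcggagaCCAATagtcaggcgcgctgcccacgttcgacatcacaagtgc

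Promoters were listed for 20 of the 24 replication and mitosis genes. A box on either strand stood in 19 of their 21 listed promoters (90.5%). It stood in 33.8% of all promoters of that length and in 34.4% of those of tested genes. It also stood in 14 of the 21 of the clock genes (66.7%), so the motif is not peculiar to 1 list.

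Hedgehog signalling, by which Shh from the incisor's epithelium keeps the niche mesenchyme active, was lower at ligand and targets, with 4 of 12 genes lower and 1 higher and a list median of -0.09. The called members came to 41.7% of the list, against 18.8% of all genes. Shh itself had 13, 5.06 and 7.3 CPM in VDRgem and 48.5, 17.1, 46.7, 57.2 and 6.74 CPM in VDR-null, with VDR-null 5 within the VDRgem range (-2.06, SE 0.57, adjusted p = 0.0261). Ptch1, the receptor that is also a target, had 85.5, 118 and 136 against 352, 149, 182, 333 and 322 CPM, without overlap (-1.24, SE 0.27, adjusted p = 0.0106). Gli1 and Hhip, both targets, fell as well. Boc, a coreceptor, rose, with 68.6, 46.8 and 47.2 against 23.7, 35.4, 36.6, 37 and 29.8 CPM and no overlap (0.74, SE 0.15, adjusted p = 0.00673).

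The call of Shh was lost without VDRgem 1 (0.0615), VDRgem 2 (0.102), VDRgem 3 (0.0552), VDR-null 1 (0.055) or VDR-null 4 (0.0502). Those of Ptch1 and Boc were lost without VDRgem 1 (adjusted p = 0.0537 to 0.0724). No gene of the Hedgehog list was called there, and the number called was 2 without VDRgem 2, VDR-null 1 or VDR-null 4 and 3 without VDRgem 3. With the 8 mutant libraries alone 1 member was called, a higher one, and no lower member kept its call. Of 18 FGF genes 2 rose and 3 fell (2 and 5 with library totals as the only scaling). In all 27.8% were called, against 18.8% of all genes. The higher ones were Fgf18 and Fgf7, which had 6.08, 3.68 and 2.37 against 1.48, 2.24, 1.41, 1.49 and 2.14 CPM (1.20, SE 0.27, adjusted p = 0.012, lost without VDRgem 1 at an adjusted p of 0.106), and the lower ones were Fgf3, Fgf10 and the FGF-responsive Etv5. No FGF gene was called without VDRgem 1, and the number was 3 without VDRgem 2.

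Among the Wnt genes 3 ligands rose. Wnt10b had 55.1, 35.8 and 33.1 CPM in VDRgem and 16.4, 20.6, 19.4, 12.3 and 15 CPM in VDR-null (1.30, SE 0.18, adjusted p = 0.00161), Wnt11 had 41.7, 33.2 and 31.1 against 12.9, 22.9, 17.1, 18.7 and 18 CPM (0.98, SE 0.16, adjusted p = 0.00344), and Wnt7b had 88.2, 34.5 and 20.8 against 11.6, 14.2, 18.5, 15.9 and 10.2 CPM (1.77, SE 0.34, adjusted p = 0.00611). The groups of all 3 ligands were apart, and each was called in all 3 fits without 1 VDRgem library. The transcription factors Lef1 and Tcf7, and the antagonists Sfrp5, Sostdc1 and Sfrp2, fell, while the antagonist-like Dkk3 rose. Of 30 genes 4 rose and 5 fell (30% called, against 18.8% of all genes), with a median of 0.14. Without VDRgem 1 the 3 higher genes and no lower gene passed. The number called was 5 without VDRgem 2 and 14 without VDR-null 3.

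Of 24 BMP and TGF-beta genes 4 rose and 5 fell (3 and 9 with library totals as the only scaling), with a median of 0.01. Called members were 37.5%, against 18.8% of all genes. Bambi, a decoy receptor that damps the signal, had 146, 191 and 171 CPM in VDRgem and 264, 234, 313, 311 and 249.99 CPM in VDR-null (-0.70, SE 0.12, adjusted p = 0.00335). Smad9, a signal carrier of BMP receptors, had 12.8, 16.7 and 17.9 against 25.9, 21.2, 23.5, 24.3 and 28.1 CPM (-0.64, SE 0.12, adjusted p = 0.00596). All VDRgem libraries lay below all VDR-null libraries and all controls for both. The ligand Bmp6 rose, with 43.7, 34.8 and 33 against 24.5, 28.1, 28, 19.7 and 23.1 CPM and no overlap (0.59, SE 0.13, adjusted p = 0.01), but not without VDRgem 1 (adjusted p = 0.08), where Bambi and Smad9 were the 2 members called. Called members numbered 5 without VDRgem 2, VDR-null 1 or VDR-null 5.

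Among the Notch genes 2 receptors rose. Notch3, which marks pericytes and smooth muscle, had 219.97, 219.9 and 213 CPM in VDRgem and 83.7, 139, 135, 133 and 152 CPM in VDR-null (0.76, SE 0.14, adjusted p = 0.00554), and Notch1 had 136, 119 and 138 against 67.4, 88.2, 94.6, 112 and 94.2 CPM (0.52, SE 0.13, adjusted p = 0.0166). The target Hes1 had 52.4, 44.9 and 31.5 against 22.3, 27.2, 32.3, 28.1 and 20.3 CPM, with VDRgem 3 within the VDR-null range (0.72, SE 0.18, adjusted p = 0.0169). With Jag2 these were 4 of 14 genes higher, none lower (4 and 1 with library totals as the only scaling), and a median of 0.35. The share called was 28.6%, against 18.8% of all genes. Without VDRgem 1 only Notch3 was called, with Notch1 and Hes1 at adjusted p = 0.0892 to 0.114, and Hes1 was also lost without VDRgem 2 (0.0535). The number called was 2 without VDRgem 2 and 7 without VDR-null 3.

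In the retinoic acid pathway the degrading enzyme Cyp26b1 rose, with 95.3, 76.7 and 72.7 CPM in VDRgem and 31, 49.2, 30.9, 41 and 46.7 CPM in VDR-null (1.04, SE 0.15, adjusted p = 0.00243). The VDRgem libraries lay above all others of the series. Rara, a receptor of retinoic acid, had 58.1, 58.6 and 43.5 against 25.8, 33.6, 38.5, 44.6 and 35.9 CPM (0.58, SE 0.14, adjusted p = 0.0158), and Rbp4, the retinol carrier, had 3.68, 2.38 and 4.26 against 1.17, 2.62, 1.01, 0.815 and 0.789 CPM (1.41, SE 0.37, adjusted p = 0.0203). The ranges of both overlapped, and controls of Rara, from 46.3 to 52.9 CPM, were near VDRgem. Rdh10 and Cyp26c1 fell, making 3 of 16 higher and 2 lower (3 and 5 with library totals as the only scaling). The list median was -0.27, and 31.2% of the list was called, against 18.8% of all genes. Without VDRgem 1 only Cyp26b1 was called, and the number was 3 without VDR-null 1 or VDR-null 4. Rara was lost without VDRgem 1 (0.0937) or VDRgem 2 (0.0617), and Rbp4 without VDRgem 1 (0.0889).

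Among the genes tied to vitamin D itself, 5 of 23 tested were higher in VDRgem and 1, Vdr, was lower than in VDR-null. The list median was 0.20, and with library totals as the only scaling the numbers were 4 and 3. For Vdr the VDRgem mean, 163.6 CPM, was near the control mean, 163.8 CPM, while the VDR-null mean was 242 CPM. Called members made up 26.1%, against 18.8% of all genes. Cyp24a1, the classic target of the hormone-bound receptor, stayed between 0.110 and 0.506 CPM in all 13 libraries and was not called (adjusted p = 0.101). Cyp27b1, which makes the hormone, lay between 0.563 and 1.28 CPM (adjusted p = 0.943). Rxra, the partner of the receptor, had 193, 166 and 139 CPM in VDRgem and 105, 122, 113, 134 and 117 CPM in VDR-null, without overlap (0.49, SE 0.10, adjusted p = 0.00867). Cst6, an inhibitor of cysteine proteases in epidermis, had 16.3, 4.69 and 0.732 against 0.143, 0.502, 0.485, 0.932 and 0.331 CPM, with VDRgem 3 within the VDR-null range (3.92, SE 0.72, adjusted p = 0.00515).

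Pth1r, Spp1 and Tnfsf11, the osteoclast factor RANKL, completed the higher members. Rxra and Cst6 lost their calls without VDRgem 1 (adjusted p = 0.0504 to 0.0793), and there Pth1r was the 1 member of the list called. A direct repeat of 2 half-sites with 3 bases between them, the arrangement known for the receptor with its partner, was searched on both strands. Each half-site could be AGGTCA or one of its variants, which were AGTTCA for one, then GGGTCA, and lastly GGTTCA. The 26 listed promoters belong to 18 of the 23 genes tested, and none is listed for Cyp24a1 or Cst6, which were therefore not searched. The repeat was in none of these 26, in 0.0396% of all promoters and in 0.0124% of those of tested genes. No match says only that these letters are not in this window.

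Of 15 genes of osteoclasts 4 rose and none fell (4 and 1 with library totals as the only scaling), with a median of 0.55. The share called was 26.7%, against 18.8% of all genes. Osteoclasts are the cells that resorb socket bone. Nfatc1, their lead transcription factor, had 62.2, 48 and 43.7 CPM in VDRgem and 25.7, 36.4, 39.1, 38.2 and 35.4 CPM in VDR-null, without overlap (0.55, SE 0.14, adjusted p = 0.0182). Itgb3, an integrin of their seal to bone, had 77.9, 49.5 and 66.8 against 26.3, 51.5, 48.6, 37.7 and 38.6 CPM, and Acp5, their acid phosphatase, had 325, 161 and 215 against 39.9, 146, 147, 105 and 92.9 CPM (log2 fold changes 0.68 and 1.14). Mmp9 was the other. VDR-null 1 was the lowest library for each of the named 3. None was called without VDRgem 1 (adjusted p = 0.138 to 0.202), and Acp5 was also lost without VDR-null 4 and without VDR-null 5 (adjusted p = 0.0581 and 0.0656). Called members numbered 2 without VDR-null 5.

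Of 24 lipid synthesis genes 10 fell and none rose (41.7% called, against 18.8% of all genes). Scd1, which puts the double bond into fatty acids, had 88.3, 97.3 and 109 CPM in VDRgem and 150.2, 129, 179.5, 156 and 145 CPM in VDR-null (-0.63, SE 0.10, adjusted p = 0.00335). Every VDRgem library lay below every VDR-null and every control library. The cholesterol pathway enzymes Nsdhl and Sc5d had 18.6, 19.8 and 19.2 against 26.6, 20.9, 24.9, 26.9 and 26.1 CPM and 22.3, 21.5 and 24.5 against 34.1, 27.3, 32.1, 36.4 and 34.1 CPM (log2 fold changes -0.38 and -0.52), again without overlap. The median of the list was -0.39. Hsd17b7, Fdps, Cyp51, Insig1 and Lss were among the other lower ones.

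Without VDRgem 1 only Scd1 of the lipid list was called, with a median of -0.46, and Nsdhl and Sc5d had adjusted p = 0.0665 to 0.0697. Without VDRgem 2 Sc5d was not called either (adjusted p = 0.0579), and the number called was 3 without VDRgem 2 and 6 without VDRgem 3 or VDR-null 4. Averaged over the list, log2 CPM came to 5.10, 5.05 and 4.94 in VDRgem, against 4.94 in VDR-null 2 and 5.28 to 5.62 in the other VDR-null libraries.

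Interferon response genes were lower in 5 of 16 cases and higher in none (31.2% called, against 18.8% of all genes). All 16 had negative fold changes, with a median of -0.38. Ifit2, which binds foreign RNA, had 6.39, 7.53 and 7.46 CPM in VDRgem and 10.7, 9.78, 9.05, 10.1 and 13.2 CPM in VDR-null (-0.57, SE 0.14, adjusted p = 0.0175). Oasl2, of the family that senses double-stranded RNA, had 12.2, 16.1 and 16.7 against 21.7, 25.5, 20.7, 22.4 and 28.6 CPM (-0.66, SE 0.17, adjusted p = 0.018). The groups were apart for both, but neither was called without VDRgem 1 (adjusted p = 0.103 to 0.109), and the number called was 2 without VDRgem 2.

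Of 19 glycolysis and hypoxia genes 5 rose and none fell (2 and 2 with library totals as the only scaling), with a median of 0.20. In this list 26.3% were called, against 18.8% of all genes. Pfkp, a phosphofructokinase, had 87.7, 41.8 and 36.8 CPM in VDRgem and 26.6, 24.3, 25.8, 26.7 and 22.7 CPM in VDR-null (1.14, SE 0.21, adjusted p = 0.00515) and was the 1 member called without VDRgem 1, the number being 2 without VDRgem 2 or VDR-null 1 and 3 without control 4, VDR-null 2 or VDR-null 5. Of 17 imprinted and insulin-like growth genes 4 rose and 1 fell (3 and 2 with library totals as the only scaling), with a median of 0.12. The share called was 29.4%, against 18.8% of all genes. Igfbp2, a binding protein of insulin-like growth factors, had 277, 127 and 112 against 47.1, 58.8, 91.2, 85.2 and 42.4 CPM, without overlap (1.41, SE 0.29, adjusted p = 0.00781), and it was not called without VDRgem 1 (adjusted p = 0.0679), where no member passed. The number called was 2 without VDRgem 2 or VDR-null 1 and 3 without VDR-null 4.

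Outside the lists, Foxo6, a forkhead transcription factor gene, had 13.9, 9.71 and 6.36 CPM in VDRgem and 3.17, 2.96, 2.95, 3.4 and 2.49 CPM in VDR-null (1.74, SE 0.20, adjusted p = 3.80e-04), and its ranges were apart. Chodl, a membrane lectin gene, had 29.7, 17.4 and 6.91 against 2.13, 3.23, 1.98, 2.89 and 1.27 CPM (2.95, SE 0.39, adjusted p = 0.00129). Among lower protein-coding genes, 3 were chosen after their values were seen: Noct, a phosphatase of nicotinamide cofactors with a daily rhythm, had 14.2, 20.7 and 22.3 against 34.2, 32.2, 35.7, 35.5 and 35 CPM (-0.85, SE 0.12, adjusted p = 0.00213). Pcdh18, a protocadherin, had 60.0, 65.9 and 78 against 109, 99.6, 113, 115 and 113 CPM, and Rnd3, an atypical small GTPase gene, had 86.6, 84.8 and 89.4 against 173, 120.2, 141, 157 and 139 CPM (log2 fold changes -0.69 and -0.75). Each of these 5 was called in all 3 fits without 1 VDRgem library. Pcp4, a calmodulin-binding peptide gene among the most lowered, had 0.364, 0.396 and 0.195 against 7.95, 0.52, 0.606, 5.22 and 4.71 CPM, VDR-null 2 and 3 lying near VDRgem, and it lost its call without VDRgem 1 (adjusted p = 0.0584).

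The smallest p-values among lower genes belonged to processed copies, sequences that arose from a spliced messenger RNA put back into the genome. Rpl10-ps3, 100% identical to the ribosomal protein gene Rpl10 over 740 bases, had 1.29, 0.792 and 1.14 CPM in VDRgem, 9.84, 8.37, 9.61, 8.08 and 7.1 CPM in VDR-null and 2.8 to 3.89 CPM in controls. The 3 ranges did not overlap, with VDRgem lowest and VDR-null highest (-3.0, SE 0.20, adjusted p = 7.77e-06). Rpl10 itself had means of 6.89 CPM in VDRgem and 7.10 CPM in VDR-null (adjusted p = 0.875). Rpl10a-ps1, Rpl31-ps8, Rps27rt and Gm2000, each at least 99% identical to a ribosomal protein gene, showed the same order of the 3 groups, with log2 fold changes of -2.40, -2.56, -2.74 and -2.43. Rpl10-ps3, Gm2000 and Rps27rt are annotated as protein-coding and are not among the pseudogenes counted next. All 5 were called in every fit, that with VDRgem 3 alone included.

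The reverse occurred too: Gm9625, 97.4% identical to Rplp0, had 23.9, 22.6 and 13.9 CPM in VDRgem and 7.71, 6.34, 5.9, 6.29 and 7.07 CPM in VDR-null (1.59, SE 0.19, adjusted p = 3.96e-04). Of 528 tested genes annotated as processed pseudogenes, 38 rose and 63 fell (19.1% called, against 18.8% of all genes), and without VDRgem 1 these were 11 and 38. Among the 122 of them at least 99% identical to a coding transcript over 90% of their length 10 rose and 26 fell (29.5%), and among the 148 under 95% identical 12 rose and 10 fell (14.9%). The 122 copies summed to 116, 100.3 and 90.6 CPM in VDRgem, 151 to 185 CPM in VDR-null and 118 to 131 CPM in controls. Reads of such copies and of their source genes cannot be told apart over identical stretches, so these levels are uncertain, and a difference in sequence between the mice's strains was not tested.

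**Figure D5:**
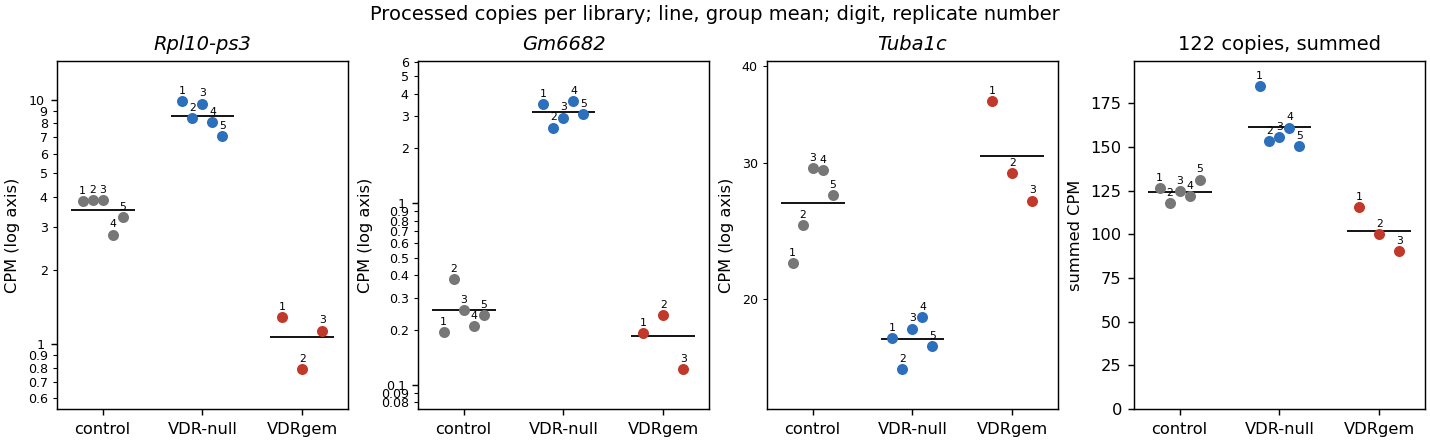
CPM per library of Rpl10-ps3, Gm6682 and Tuba1c (log axes) and the summed CPM of the 122 processed pseudogenes at least 99% identical to a coding transcript (linear axis from 0), by genotype, with group means as lines. VDR-null libraries are highest for both copies and lowest for Tuba1c.

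A pair of copies were high in VDR-null libraries only. Gm6682, a copy on chromosome 12 that is 97.8% identical to the tubulin gene Tuba1c, had 0.192, 0.242 and 0.122 CPM in VDRgem, 3.51, 2.6, 2.95, 3.63 and 3.08 CPM in VDR-null and 0.194 to 0.379 CPM in controls (-4.11, SE 0.28, adjusted p = 7.77e-06). Tuba1c had the opposite order, with 36, 29.1 and 26.8 CPM in VDRgem, 17.8, 16.3, 18.3, 19 and 17.4 CPM in VDR-null and 22.3 to 29.5 CPM in controls (0.79, SE 0.11, adjusted p = 0.00197). All 5 VDR-null libraries stood apart from the other 8 in both genes. Tuba1c lies on chromosome 15 within 10 Mb of Vdr.

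Gm47021, a copy on chromosome 13 that is 96.8% identical to Dazap2, had 0.0575, 0.066 and 0.0488 CPM in VDRgem and 3.34, 3.42, 3.68, 3.55 and 0.0763 CPM in VDR-null, with controls from 0 to 0.126 CPM. VDR-null 5 was at the level of the other genotypes while the other 4 VDR-null libraries were above 3 CPM (-5.58, SE 0.96, adjusted p = 0.00389). Dazap2 also lies on chromosome 15 within 10 Mb of Vdr and was not called (adjusted p = 0.0957). Of 217 genes tested in that span around Vdr, 34 rose and 20 fell (24.9%), and without its keratin genes 24 of 200 rose and 19 fell (21.5%), against 18.8% over the genome. The span holds Wnt10b, Pim3 and Krt76 among its called genes. Pim3, a growth-promoting kinase, had 35.6, 29.2 and 20.1 CPM against 12.2, 15, 14.6, 14.4 and 15.6 CPM, without overlap (0.98, SE 0.15, adjusted p = 0.00253). Linked sequence around Vdr and the receptor itself cannot be told apart in these groups.

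Of 20 tested genes of keratinocytes, the cells of the gum and skin surface, 19 rose (95% called, against 18.8% of all genes). Krt10, a keratin of cornifying layers, had 1963, 812 and 14.1 CPM in VDRgem and 3.22, 3.71, 3.84, 3.82 and 2.34 CPM in VDR-null, with controls from 4.05 to 6.96 CPM (8.10, SE 0.95, adjusted p = 3.96e-04). Krt13, of the moist oral surface, had 5786, 857 and 75.4 against 0.129, 0.323, 5.74, 2.8 and 2.26 CPM, and controls reached from 0.805 to 228 CPM (10.10, SE 1.94, adjusted p = 0.00602). The VDRgem libraries fell apart by orders of magnitude, with VDRgem 1 highest and VDRgem 3 lowest, and VDRgem 3 lay within the range of the controls for Krt13 but above it for Krt10. Idi2, an isomerase of isoprenoid synthesis with the largest fitted log2 fold change of all genes tested, had 572, 59 and 5.21 against 0.0143, 0.0179, 0.0808, 0.0388 and 0.0254 CPM in the same order (12.71, SE 1.82, adjusted p = 0.002). Controls of Idi2 reached from 0 to 5.02 CPM, control 4 lying near VDRgem 3. Its VDR-null values were near 0, so the size of this fold change is uncertain.

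The median of the keratinocyte list was 5.16. Without VDRgem 1, 16 rose with a median of 4.16, and without VDRgem 1 and 2, 1 rose, Krt10, with a median of 1.40. The list summed to 26068, 7515 and 1807 CPM in VDRgem 1, 2 and 3, to 566 to 1813 CPM in VDR-null and to 1112 to 1831 CPM in controls. None of the 20 was at 0 in every VDR-null library, but 4 were under 1 CPM in all of them. Members that low may have passed the low-count filter through the libraries where they are high, so their calls carry little weight. Among the VDRgem libraries all 20 were highest in VDRgem 1. In VDRgem 3 the sum was just under that of VDR-null 4, but the mean log2 CPM of the list, 3.94, was above the VDR-null range of 1.1 to 2.8. The part of these cells in the other differences was not tested.

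The share of markers of other tissues that were called differed between lists, beside 18.8% of all genes tested. It was 28.6% for endothelial, 25% for smooth muscle and pericyte, 18.2% for erythroid and 15.4% for Schwann cell genes. For neuron and macrophage genes it was 8.33% and 5.88%, and of 3 adipocyte genes 2 rose. No skeletal muscle gene of 18 was called, with a median of -0.34, and their sums were 334, 71.4 and 47.4 CPM in VDRgem against 11 to 861 CPM in VDR-null. Without VDR-null 3, the library at 861 CPM, 4 rose and the median was 1.64. Of 13 Schwann cell genes Gfra3 (0.62) and S100b (0.51) rose and none fell (1 and 1 with library totals as the only scaling), while the list median was -0.51, with sums from 247 CPM in VDR-null 4 to 2963 CPM in VDR-null 5. Neither was called without VDRgem 1. No mast cell gene of 6 was called, though the median was 1.33 and 5 of the 6 were positive, and without VDRgem 1 it was 0.17. Without VDRgem 3, 3 mast cell genes rose. Of 11 erythroid genes, all positive with a median of 0.74, Slc4a1 (1.20) and Hba-a1 (1.17) rose, and none was called without any 1 of the VDRgem libraries or without VDR-null 1, 4 or 5. No lymphocyte gene of 10 was called, and 1 was without VDRgem 3. Of 14 endothelial genes 4 rose, 1 without VDRgem 1 and 2 without VDRgem 2. Among 12 smooth muscle and pericyte genes 3 rose and none fell. Shorter genes were more often higher: in the shortest quintile by exon length, up to 2018 bases, 505 genes rose and 141 fell, and in the longest quintile, from 7033 bases, 220 rose and 412 fell. The median log2 fold change went from 0.10 in the shortest to -0.12 in the longest quintile, and from 0.07 to -0.09 without VDRgem 1. Without VDRgem 1 and 2 the medians were 0.02 and -0.02, and 1 gene of the shortest quintile was higher and 28 lower. RNA quality was not given in the sources used here, and its part in that trend was not tested.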

How the data were processed

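RNA of lower incisors was sequenced from poly-A stranded libraries, per the labels' protocols. The authors deposited 1 table of raw read counts per gene for 34709 Ensembl genes. The submitters' processing notes name bcl2fastq 2.20.0.422, STAR 2.5.3a, HTSeq 0.6.1p1 and the build mm10. How reads that match several places were treated is not given in the sources used here. GENCODE M21 gave symbols for 34618 genes. edgeR 4.0.16 in R 4.3.3 (limma 3.58.1, DESeq2 1.42.0 for alternatives) fitted all 13 libraries by group, after filterByExpr with a minimum count of 10 and TMM scaling, and the contrast VDRgem minus VDR-null was tested by quasi-likelihood with Benjamini-Hochberg adjustment over 17837 genes at 0.05. The standard error is the log2 fold change divided by the root of the F statistic. CPM are read counts scaled to TMM library sizes, and list levels are means of log2 CPM with a prior count of 2. CPM set a gene beside itself across libraries, not beside other genes of other length.

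Processed pseudogenes were matched to coding transcripts with blastn 2.17.0. The rule for named genes took Vdr, then, at a mean of at least 1 CPM with groups apart, the 10 largest changes each way, the 12 smallest p each way of those called without each VDRgem library, the 3 smallest p of each list and 6 called genes near Vdr. The text gives a part of these, names the other called members of a list without per-library values, and marks genes chosen after their values were seen. The members and lists were chosen with earlier results of these data known. The fit was tested on simulated data. Replicates are numbered in accession order. Alternatives were other tools, scalings, filters and thresholds and leaving out libraries. A few genes and 1 pair of sequences are not reported here.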

Additional observations from a re-analysis of the deposited data

Results flagged for a closer look

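In 12 of the 107 gene and list results examined, 1 VDR-null library stood apart from the other 4 by a gap over 0.71 of the group's range. Chance alone gives such a gap in about 1 of 20 groups of 5, and these genes share libraries. VDR-null 1 was the library apart in 7 of them. It was low for Pth1r (43.8 CPM against 62.4 to 68.6), Col5a1 (938 against 1414 to 1574 CPM), Notch3 (83.7 against 133 to 152 CPM), Per1 (22.6 against 31.8 to 34.4 CPM), Nfatc1 (25.7 against 35.4 to 39.1 CPM) and the collagen and fibrous matrix list (mean log2 CPM 9.85 against 10.20 to 10.29), and high for Rpl10a-ps1 (20.5 against 13.1 to 14.9 CPM).

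VDR-null 2 was high for Col3a1 (15432 against 9172 to 10624 CPM), Htra1 (223 against 135 to 148 CPM) and Rbp4 (2.62 against 0.789 to 1.17 CPM), all 3 in the direction of VDRgem, and low for the dental papilla list (mean log2 CPM 4.36 against 4.84 to 4.92). VDR-null 5 was low for the copy Gm47021 (0.0763 against 3.34 to 3.68 CPM).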

How the results depend on the processing

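Of the 3346 genes called in all, 1887 higher and 1459 lower, the count was 753 with the 8 mutant libraries alone (584 higher, 169 lower), 5127 at an adjusted p of 0.1 (2463 lower), and 750 at 0.01 (554 higher, 196 lower). Without the filter 870 genes were lower, and with library totals as the only scaling 3616 were lower and 1310 higher, the median over all genes moving from -0.02 to -0.19. Without VDRgem 1 and 2, 32 genes were called (3 higher, 29 lower). Leaving out 1 library gave 434 to 4610 genes, 321 to 2640 higher and 113 to 1970 lower. The other tools and scalings and the submitters' threshold kept the counts within 1.5 times. For Vdr the log2 difference was -0.61 with an exact permutation p of 0.0714, and -0.77 with library totals alone (exact p = 0.0357). It was -0.56 by edgeR (adjusted p = 0.0397), and -0.61 with exact permutation p = 0.0357 where arrangements are counted by absolute difference, a definition chosen after seeing the data. Leaving out 1 mutant library gave -0.80 to -0.33. Of the other genes with their values in the text, 43 kept their call without VDRgem 1 and 37 lost it, 55 kept it with the 8 mutant libraries alone, 73 by limma-voom and 8 without VDRgem 1 and 2, and none turned its direction. With the 8 mutant libraries alone the called members were 17 of the keratinocyte, 6 of the immediate early, 5 of the clock, 4 each of the vitamin D, Wnt and lipid synthesis, 3 each of the collagen and BMP, and 2 each of the maturation ameloblast, papilla, follicle and FGF lists. They were 1 each of the replication and mitosis, protease, secretory ameloblast, odontoblast, Hedgehog, Notch, retinoic acid, imprinted, interferon and glycolysis lists, and 0 of the osteoclast list. The 1 member of the Hedgehog list and the 1 of the secretory ameloblast list were higher, so none of their lower members was called there. No paired analysis was possible because the labels carry no shared replicate numbers. With 3 VDRgem libraries that differ among themselves, a missing call does not show that a gene did not differ.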

Other observations

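Of 18 regulators of dental epithelial stem and progenitor cells 3 rose and 1 fell (3 and 2 with library totals as the only scaling), and the 22.2% called were near the 18.8% of all genes. The higher ones were Krt15 (log2 fold change 3.57), Pitx1 (2.17) and Sox2 (1.61), and the lower one was Sfrp5 (-2.82), a Wnt antagonist of the niche. Without VDRgem 1, 1 of the 18 was called. Cartilage genes Acan (1.44), Col2a1 (2.66) and Comp (1.57) rose while Sox9, the transcription factor of cartilage and of other stem cells, fell (-0.66), among 12 tested (3 and 2 with library totals as the only scaling). The cartilage list was mixed, with a median of 0.03 and 7 of the 12 positive. Its share called was 33.3%, against 18.8% of all genes. Of these 12, 2 were called without VDRgem 1. Of 15 genes of the neurotrophin and GDNF families 4 rose and none fell (3 and 1 with library totals as the only scaling), among them the ligands Artn (1.09) and Nrtn (2.18) and the receptor Gfra3 (0.62), and none was called without VDRgem 1. The share called with all libraries was 26.7%, against 18.8% of all genes.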
